A study of Homo sapiens with 18 samples.

Results

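DUSP4, DUSP5, DUSP6, SPRY2, SPRY4, SPRED1, SPRED2, ETV4, ETV5 and PHLDA1 are genes that the ERK branch of the MAPK pathway switches on and whose products, in most cases, restrain that branch in turn. They were chosen by symbol, as the set of ERK feedback and output genes, and all 10 had a row among the 26475 genes of the count table. All 10 passed the filter on low counts in every comparison. The table holds RNA-seq of Mel92.1 and MP41, 2 established human lines of uveal melanoma (the common melanoma of the eye), treated for 48 h with DMSO or with 1 µM of UNC0642 or A366, which both inhibit EHMT2 (also called G9a), a methyltransferase of histone H3 lysine 9. Each line and treatment gave 3 libraries, which the series describes as biological replicates, so that 18 libraries fell into 6 groups.

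ERK is the last kinase of the RAS, RAF and MEK cascade. When it is active it phosphorylates transcription factors in the nucleus, and a small group of genes follows its activity within hours. Some of these encode phosphatases that remove the activating phosphates from ERK, some encode Sprouty and SPRED proteins that act on the receptors, RAS or RAF above it, and others, such as the ETS factors ETV4 and ETV5, pass the signal on to further genes. Most uveal melanomas carry an activating mutation of a Gq-type G protein, which signals to ERK among other pathways. The comparisons asked how far the messages of these genes moved when EHMT2 was inhibited, whether the inhibitors moved them alike, and whether the lines did.

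Mel92.1 and MP41 cells without inhibitor received DMSO, the solvent. The labels name no genetic change in any group. The DMSO libraries of a line served as the control of both inhibitors, so that the comparisons with UNC0642 and A366 in a line share their control. Levels are given as CPM, counts scaled to a common library total with TMM factors over all 18 libraries. Whether groups overlap was read from these levels. Changes with an inhibitor within a line come from fits scaled over its 9 libraries, so that they can differ slightly from the ratio of the levels. The test was the quasi-likelihood F test of edgeR, its p-values were adjusted by the Benjamini-Hochberg method across every gene of the comparison (called the edgeR adjusted p), and a call is an edgeR adjusted p under 0.05. Changes are log2 fold changes with a standard error (SE) derived from the F statistic of the test, or with the 95% interval built on that SE. In bulk RNA, fewer cells of a kind and less RNA per cell cannot be told apart.

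Library totals ran from 23601160 to 62941453 counts, with a median of 41955691. One library stood apart, Mel92.1 with UNC0642 replicate 1, which had the lowest total, 32.8% of its counts in 4 ribosomal RNA genes (median over the 18 libraries 7.45%) and only 13344 genes with a count, against 16296 to 18217 in the others. The 4 libraries labelled as A366 replicates 2 and 3 of either line went against their labelled line. Over the genes at 20 CPM or more in the DMSO libraries of a line and at 0.05 CPM or less in the other (27 genes for Mel92.1 and 33 for MP41), these 4 libraries held 96.5% to 112% of the DMSO level of the line opposite to their label and 0.0233% to 0.0677% of that of their labelled line. They were therefore placed in the opposite line by the rule of this gene set, and values with A366 are also given without them and as labelled. The fit without them leaves 1 A366 library in each line, which is assumed to vary like the other groups, so that its p-values carry no replicate check of A366. Melanocyte lineage markers were present in every group, with 0 of 7 at 0 and a summed level between 14999 and 24415 CPM over libraries, although the DCT level (dopachrome tautomerase, a pigment enzyme) averaged 1.94 CPM in Mel92.1 with DMSO. The summed leukocyte markers reached at most 1.19 CPM in any library. The 5 fibroblast markers summed to between 23 and 53.7 CPM over libraries, nearly all from LUM and COL1A1, with COL1A2, DCN and PDGFRB each averaging under 1 CPM in every group.

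A366 moved a few of the feedback messages and UNC0642 moved none past the threshold. In Mel92.1 with A366, 1 of the 10 genes was called higher, DUSP6, against 0.179% of the 14528 genes tested that were called higher, and 0 were called lower. In MP41 with A366, DUSP6 and DUSP4 rose, against 22.5% of 14956 genes called higher, and SPRED1 and SPRED2 fell, against 23.5% called lower. Read against those shares, a count of 2 in either direction is close to what the genes at large did in that line. With UNC0642, 0 of the 10 were called in Mel92.1, where 0.688% of genes were called in either direction, and 0 in MP41, where 0.241% were. Before adjustment, a p under 0.05 was reached by 0 of the 10 in Mel92.1, beside 9.93% of all genes tested, and by 3 in MP41, beside 8.8%. By size, the median absolute log2 fold change of the 10 genes with A366 was 0.0866 in Mel92.1, beside 0.0859 over all genes tested, and 0.212 in MP41, beside 0.31. With UNC0642 it was 0.0873 in Mel92.1, beside 0.149, and 0.1 in MP41, beside 0.0947.

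**Figure D1:**
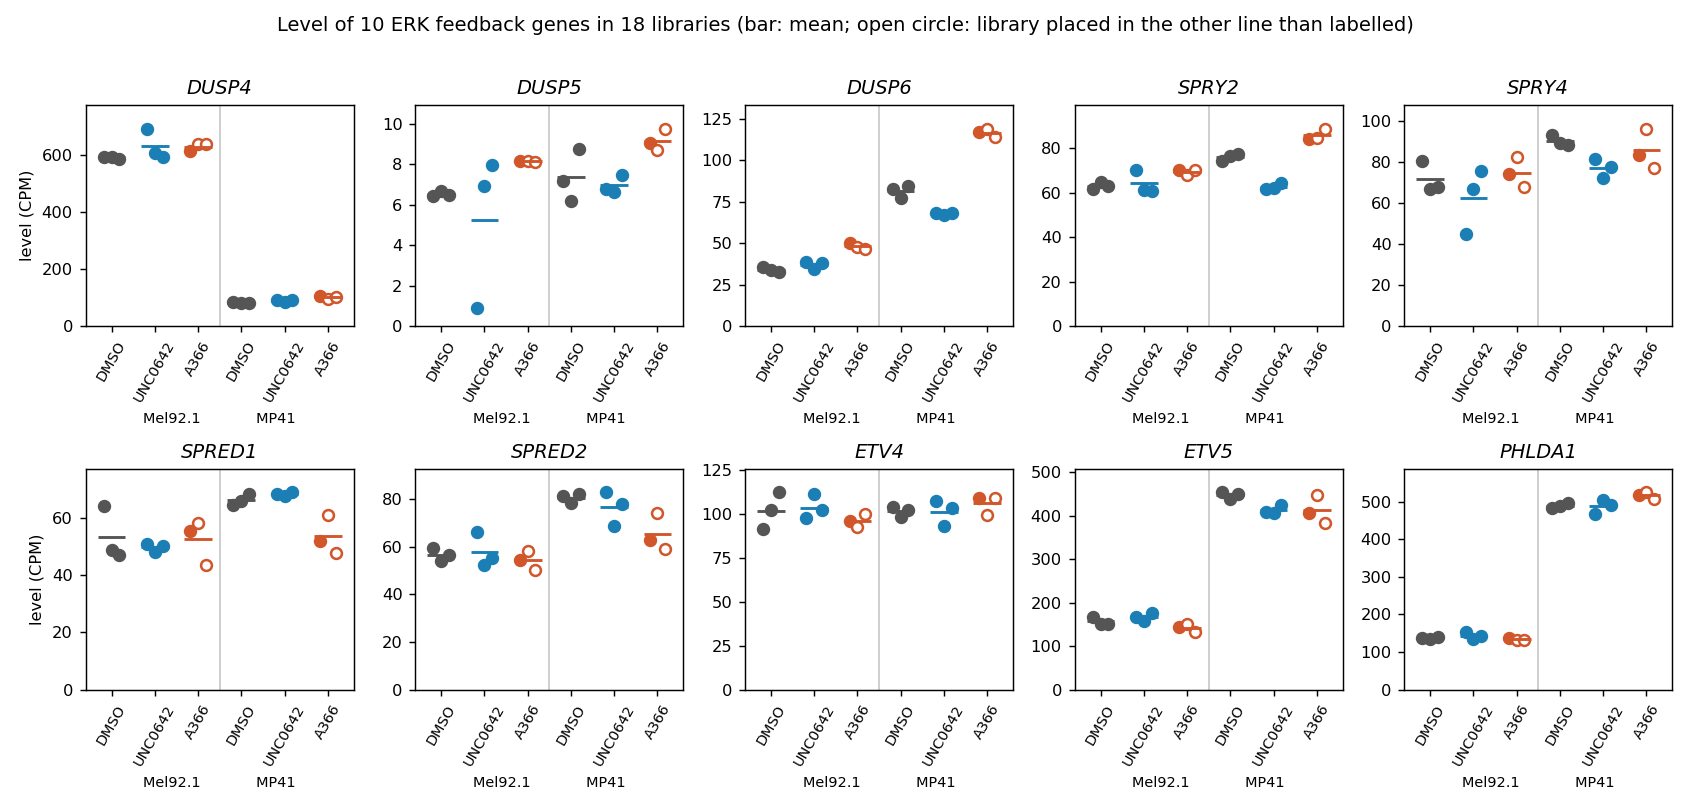
Level of each gene in CPM (vertical axes, from 0) in the 18 libraries, by line and treatment, with 1 point a library and a bar at the group mean. Open circles are the 4 libraries placed in the line opposite to their label. DUSP6 with A366 lies above DMSO in both lines, and DUSP4 sits between 586 and 690 CPM in Mel92.1 and between 80.3 and 105 CPM in MP41.

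The lines started from different levels. To compare genes, levels were divided by the length of the longest annotated transcript. Which transcripts the cells express was not determined, so the order of the genes depends on that choice of length. With DMSO in Mel92.1 the level was highest for DUSP4 at 107 ± 0.641 CPM per kb (SD, n = 3) and lowest for DUSP5 at 2.56 ± 0.0567. Between them came ETV4 at 41.8 ± 4.24, ETV5 at 38.1 ± 1.99, SPRY2 at 23.4 ± 0.593 and PHLDA1 at 17.1 ± 0.263, followed by SPRED2 at 13.8 ± 0.682, SPRY4 at 13.4 ± 1.41, DUSP6 at 7.72 ± 0.329 and SPRED1 at 6.84 ± 1.21. The neighbours ETV4 and ETV5, SPRED2 and SPRY4, and DUSP6 and SPRED1 lay within their SDs of each other. MP41 had another order, led by ETV5 at 109 ± 2.02 CPM per kb and PHLDA1 at 60.5 ± 0.759. ETV4 followed at 41.7 ± 1.21, then SPRY2 at 28.1 ± 0.596, SPRED2 at 19.7 ± 0.499, DUSP6 at 18.6 ± 0.86, SPRY4 at 16.9 ± 0.469, DUSP4 at 14.9 ± 0.392, SPRED1 at 8.51 ± 0.233 and DUSP5 at 2.89 ± 0.508, with SPRED2 and DUSP6 within their SDs. DUSP5 was thus the lowest of the set in both lines.

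**Figure D2:**
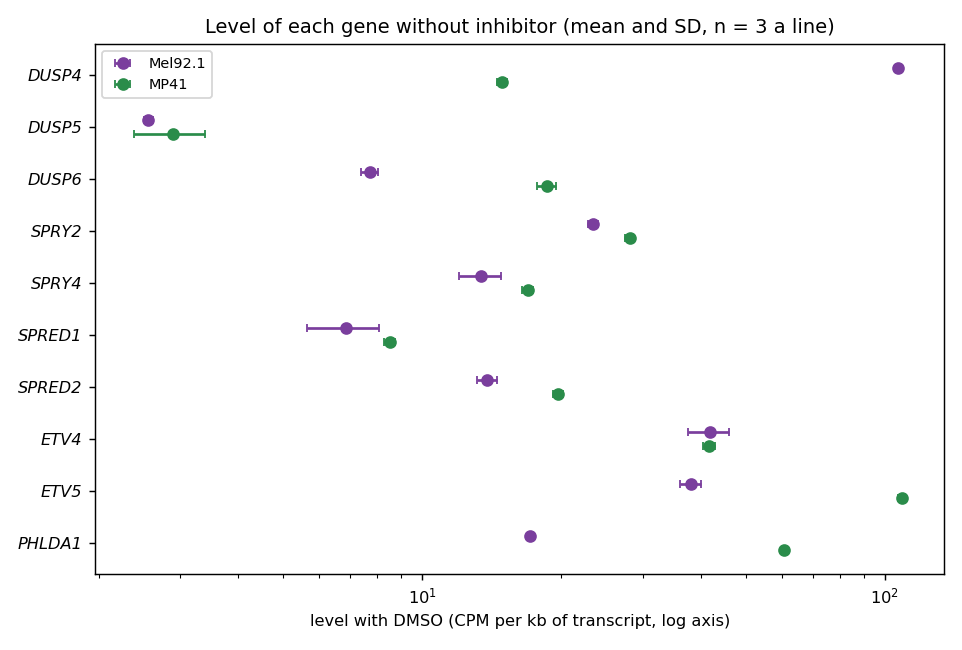
Level of each gene with DMSO in CPM per kb of its longest transcript (horizontal log axis), as mean and SD of 3 libraries for Mel92.1 and MP41. DUSP4 is far higher in Mel92.1, ETV5 and PHLDA1 are higher in MP41, and the ETV4 points coincide at 41.8 and 41.7.

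With DMSO, 1 of the 10 genes was called higher in Mel92.1 than in MP41, where 34.5% of 15799 genes were, and 7 were called lower, where 34.8% were. The single gene in the first direction was DUSP4, at 7.16-fold the MP41 level (log2 2.84, SE 0.063, edgeR adjusted p = 3.41e-16). PHLDA1 was 3.54-fold lower in Mel92.1 (log2 -1.82, SE 0.053, edgeR adjusted p = 7.98e-15), ETV5 2.85-fold lower (log2 -1.51, SE 0.0679, edgeR adjusted p = 2.26e-12) and DUSP6 2.4-fold lower (log2 -1.26, SE 0.0633, edgeR adjusted p = 9.7e-12). Smaller differences in that direction were called for SPRED2 at log2 -0.51, SPRY4 at -0.33, SPRED1 at -0.31 and SPRY2 at -0.27. DUSP5 and ETV4 were not called, with 95% intervals of -0.97 to 0.62 and -0.16 to 0.17. The SPRY4 call held in 4 and the SPRED1 call in 14 of the 18 fits that left out 1 library. With a correction for transcript GC content and length (an offset in the fit) the SPRED1 difference turned to 0.28 and that of ETV4 to -0.59. Transcript GC was 38.9% in SPRED1, the lowest of the 10, and 60.8% in ETV4, the highest.

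DUSP4 encodes a nuclear dual-specificity phosphatase that removes phosphates from ERK and from stress-activated MAP kinases. In Mel92.1 its level was 591, 593 and 586 CPM under DMSO, 690, 605 and 591 under UNC0642, and 612, 637 and 636 under A366. The 690 CPM belongs to the library that stood apart, and without it the UNC0642 change went from 0.086 to 0.017. The A366 libraries lay above the DMSO ones, but the change of 0.093 (95% interval -0.05 to 0.23) was not called. In MP41 the libraries gave 84.7, 82.2 and 80.3 CPM under DMSO, 91.8, 86 and 90.8 under UNC0642, and 105, 96 and 103 under A366. Both inhibitor groups lay above DMSO without overlap. The rise with A366 was 1.21-fold (log2 0.27, SE 0.0629, edgeR adjusted p = 0.00427), and the UNC0642 value was 0.12 (95% interval -0.022 to 0.25, edgeR adjusted p = 0.664). From the 1 A366 library left without the 4 doubtful ones, the change was 0.30 (edgeR adjusted p = 0.00469). As labelled it was 2.51, from a group that held libraries at the DUSP4 level of both lines.

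DUSP5 (chr10:110497838-110511544, plus strand, GRCh38) encodes a phosphatase that binds ERK in the nucleus. It had between 15 and 523 counts a library, the thinnest data of the set, and a pseudogene of near-identical sequence could have shared some of its reads. In Mel92.1 the level was 6.43, 6.7 and 6.49 CPM under DMSO, 0.911, 6.91 and 7.97 under UNC0642, and 8.15, 8.17 and 8.12 under A366. The 0.911 CPM belongs to the library that stood apart, where it rested on 15 counts. Every A366 library was above every DMSO library, yet the change of 0.32 had a 95% interval of -0.80 to 1.43. Without the UNC0642 library that stood apart, the same A366 change kept its size at 0.32 with an SE of 0.0919 (edgeR adjusted p = 0.219), against an SE of 0.5 with it. In MP41 the level was 7.2, 6.18 and 8.76 CPM under DMSO, 6.78, 6.66 and 7.49 under UNC0642, and 9.05, 8.69 and 9.76 under A366. The A366 and DMSO values overlapped, and the difference of 0.29 was not called (edgeR adjusted p = 0.0921). It was 0.032 with the GC and length correction.

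DUSP6 (chr12:89347232-89353271, minus strand) encodes the cytoplasmic phosphatase specific for ERK, and its message is a common readout of ERK activity. It was called in both lines with A366. In Mel92.1 it measured 35.5, 33.8 and 32.6 CPM under DMSO, 38.4, 34.6 and 38.2 under UNC0642, and 50.2, 47.9 and 46.3 under A366. All A366 libraries lay above all others of the line, and the rise over DMSO was 1.42-fold (log2 0.50, SE 0.0776, edgeR adjusted p = 0.0384). In MP41 it measured 83, 77.3 and 84.5 CPM under DMSO, 68.3, 67.2 and 68.5 under UNC0642, and 117, 119 and 114 under A366. The 3 treatments did not overlap there, with UNC0642 lowest and A366 highest. The A366 rise was 1.41-fold (log2 0.49, SE 0.0613, edgeR adjusted p = 0.000292), close in size to that in Mel92.1, and the difference between the lines was -0.015 (95% interval -0.20 to 0.17). UNC0642 gave -0.27 in MP41, which had an unadjusted p of 0.000918 and an edgeR adjusted p of 0.146.

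In the fit without the 4 doubtful libraries, with 1 A366 library a line, the DUSP6 value was 0.48 (edgeR adjusted p = 0.00024) in MP41, where 35.7% of genes were then called in either direction. In Mel92.1 the value without them was 0.56 with an edgeR adjusted p of 1, the share of genes called being 0%. As labelled the DUSP6 change was 1.49 in Mel92.1 (edgeR adjusted p = 0.162), where the share called was again 0%, and -0.22 in MP41 (edgeR adjusted p = 0.604), where it was 32.8%. DESeq2 gave an adjusted p of 1.44e-07 for the Mel92.1 rise, while edgeR with the GC and length correction gave 0.113. Of the 9 edgeR fits that left out 1 library of the line, only that without UNC0642 replicate 1 kept the Mel92.1 call, and the change stayed between 0.47 and 0.53 in all of them (edgeR adjusted p up to 0.284).

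**Figure D3:**
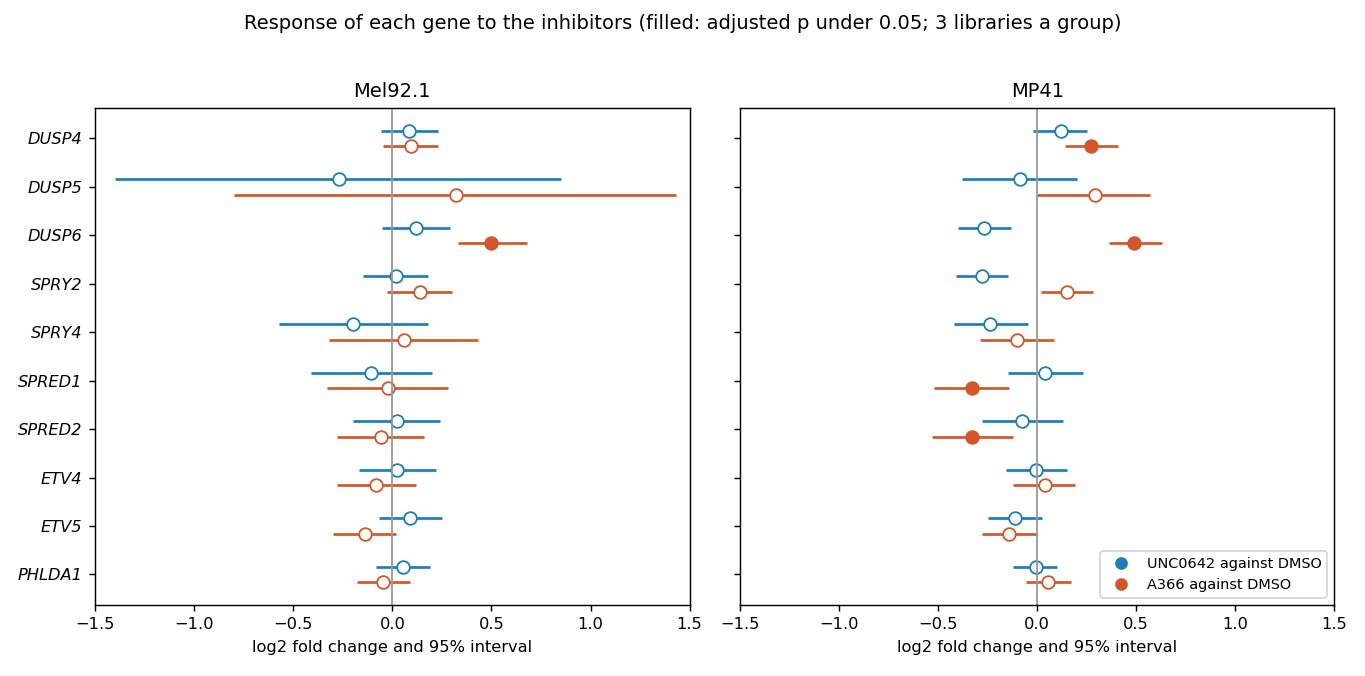
Log2 fold change of each gene against DMSO with its 95% interval (horizontal axes) for UNC0642 and A366, in Mel92.1 on the left and MP41 on the right, with filled points for an adjusted p under 0.05. The A366 point of DUSP6 is at 0.50 in Mel92.1 and 0.49 in MP41, and no UNC0642 point is filled.

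SPRY2 (chr13:80335976-80340951, minus strand) and SPRY4 (chr5:142310427-142326455, minus strand) encode Sprouty proteins, which dampen the signal from receptor tyrosine kinases to RAS and RAF. The table of RefSeq starts gives 3 windows for SPRY2, and the 250 bases before the start of the first are shown because SPRY2 differed most after DUSP6 between the inhibitors in MP41 and because they hold, in capitals, the ETS core CCGGAA, the letters that factors such as ETV4 and ETV5 can bind. They lie at chr13:80341127-80341376 on the minus strand (RefSeq, GRCh38.p14), outside any GENCODE exon, and the match ends 136 bases before the start.
SPRY2: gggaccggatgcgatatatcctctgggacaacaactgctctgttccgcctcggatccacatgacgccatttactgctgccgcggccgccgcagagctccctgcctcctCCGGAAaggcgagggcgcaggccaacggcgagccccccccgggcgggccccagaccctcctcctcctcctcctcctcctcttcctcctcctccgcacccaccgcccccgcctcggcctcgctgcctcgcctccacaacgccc

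RefSeq start windows were matched for 6 of the 10 genes, in 9 windows. DUSP4, DUSP5, ETV4 and ETV5 had none in the table. Of these windows, 1 of the 3 of SPRY2 and the 1 of PHLDA1 held the ETS core CCGGAA, read on both strands, as did 14.5% of the 35116 windows of all genes. The whole PHLDA1 window lies in exon sequence of a GENCODE gene, and its match is shown with its neighbouring bases at chr12:76031848-76031877 (minus strand, GRCh38.p14), in capitals as its reverse complement.
PHLDA1: gaggagaggagtTTCCGGggctcgggtccg
None of the 9 windows held the CIC octamer TGAATGAA or TGAATGGA (2.19% of all windows), the AP-1 site TGANTCA (6.57%) or the CRE TGACGTCA (1.65%). These are matches of letters, and their absence says only that they are not in these windows.

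The SPRY2 level in Mel92.1 was 61.8, 65 and 63 CPM under DMSO, 70.4, 61.5 and 61 under UNC0642, and 70.2, 68.1 and 70.2 under A366. The 70.4 CPM belongs to the library that stood apart, and without it the UNC0642 change went from 0.016 to -0.048. A366 lay above DMSO in all 3 libraries, with a change of 0.14 (95% interval -0.027 to 0.30) that was not called. MP41 gave 74.3, 76.8 and 77.4 CPM under DMSO, 61.7, 62.2 and 64.5 under UNC0642, and 84.4, 84.6 and 88.8 under A366. Here the treatments separated fully, UNC0642 below and A366 above DMSO. Neither passed the threshold against DMSO: UNC0642 was at -0.28 (unadjusted p = 0.000502, edgeR adjusted p = 0.132) and A366 at 0.15 (edgeR adjusted p = 0.0581). DESeq2 called both, at adjusted p of 0.000619 and 0.0355, as did edgeR without MP41 A366 replicate 2 (edgeR adjusted p = 0.0195 and 0.0349). The A366 value was smaller with the GC and length correction, at 0.043 (edgeR adjusted p = 0.522), and was -0.027 as labelled. SPRY4 varied more. In Mel92.1 it was 80.4, 67 and 67.8 CPM under DMSO, 44.9, 66.7 and 75.7 under UNC0642, where the lowest was the library that stood apart, and 73.9, 82.3 and 67.6 under A366. These groups overlapped. In MP41 it was 93.1, 89.4 and 88.4 CPM under DMSO, 81.2, 72.1 and 77.5 under UNC0642, all below DMSO, and 83.5, 96.1 and 77.2 under A366. The UNC0642 value was -0.24 (unadjusted p = 0.0177, edgeR adjusted p = 0.433).

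SPRED1 (chr15:38252326-38357249, plus strand) and SPRED2 (chr2:65310851-65432637, minus strand) encode relatives of Sprouty that block activation of RAF by RAS. Both fell in MP41 with A366. SPRED1 measured 64.4, 66 and 68.1 CPM under DMSO, 68.3, 67.6 and 68.8 under UNC0642, and 51.8, 61 and 47.8 under A366, so that each A366 library lay below the rest. The fall was 1.26-fold (log2 -0.33, SE 0.086, edgeR adjusted p = 0.00851), and it was -0.40 without the 4 doubtful libraries, from 1 A366 library (edgeR adjusted p = 0.00109), and -0.36 as labelled (edgeR adjusted p = 0.0331). With the GC and length correction, however, it turned to 0.12 (edgeR adjusted p = 0.0708), so that its direction depended on that choice. SPRED2 measured 81.4, 78.2 and 82.1 CPM under DMSO, 82.8, 68.7 and 78.1 under UNC0642, and 62.8, 74.1 and 58.9 under A366. The A366 values lay below DMSO, at 1.26-fold lower (log2 -0.33, SE 0.0951, edgeR adjusted p = 0.0145), and the value was -0.40 without the 4 libraries, again from 1 A366 library, and -0.49 as labelled. The SPRED2 call was lost without MP41 A366 replicate 1 (-0.29, edgeR adjusted p = 0.0669) and without MP41 DMSO replicate 3 (-0.32, edgeR adjusted p = 0.0513).

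In Mel92.1, neither SPRED gene was called with either inhibitor. The SPRED1 level was 64.1, 48.7 and 46.9 CPM under DMSO, 50.9, 48.1 and 50.1 under UNC0642, and 55.4, 58.2 and 43.6 under A366. For SPRED2 it was 59.6, 54 and 56.5 under DMSO, 66.2, 52.4 and 55.1 under UNC0642, and 54.5, 58.4 and 50.4 under A366. All these groups overlapped. The 66.2 CPM belongs to the library that stood apart, and without it the SPRED2 change with UNC0642 went from 0.022 to -0.079. The A366 response in Mel92.1 minus that in MP41 was 0.28 for SPRED1 (95% interval -0.071 to 0.63) and 0.24 for SPRED2 (-0.053 to 0.54), so that a difference between the lines was not shown for either.

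ETV4 (chr17:43527844-43579620, minus strand) and ETV5 (chr3:186046308-186110318, minus strand) encode ETS transcription factors of the PEA3 group, which act downstream of ERK. The ETV4 level was 91.2, 102 and 112 CPM under DMSO, 97.3, 111 and 102 under UNC0642 and 95.9, 92.3 and 99.5 under A366 in Mel92.1. In MP41 it was 104, 98.1 and 102, then 107, 92.9 and 103, then 109, 99.3 and 109 in the same order. No ETV4 contrast with an inhibitor was called, although the GC and length correction moved the A366 value in MP41 from 0.038 to -0.30 (edgeR adjusted p = 0.00291). DHX8 overlaps ETV4 on the opposite strand and DGKG overlaps ETV5 on the same strand, and how the counting used strand is not given in the sources used here, so that reads of these pairs may not be fully separated. ETV5 in Mel92.1 measured 166, 152 and 152 CPM under DMSO, 166, 158 and 177 under UNC0642, and 144, 150 and 132 under A366. The A366 libraries lay just below DMSO, with a change of -0.14 (95% interval -0.30 to 0.017). ETV5 in MP41 measured 453, 437 and 449 CPM under DMSO, 409, 407 and 424 under UNC0642, and 406, 448 and 383 under A366. UNC0642 lay below DMSO without overlap at -0.11 (95% interval -0.25 to 0.025), and A366 overlapped DMSO at -0.14 (edgeR adjusted p = 0.0954), a value that was called with the 1 A366 library left without the 4 doubtful ones (-0.18, edgeR adjusted p = 0.0211) and without MP41 A366 replicate 2 alone (-0.21, edgeR adjusted p = 0.00225).

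PHLDA1 (chr12:76025447-76033932, minus strand) encodes a pleckstrin homology-like protein whose message follows ERK activity. It measured 138, 136 and 140 CPM under DMSO, 153, 135 and 143 under UNC0642, and 137, 131 and 133 under A366 in Mel92.1. The 153 CPM belongs to the library that stood apart, and without it the UNC0642 change went from 0.053 to 0.0094. In MP41 PHLDA1 measured 482, 488 and 495 CPM under DMSO, 466, 505 and 490 under UNC0642, and 516, 524 and 508 under A366. Only the last group lay clear of its DMSO libraries, and at 0.055 (95% interval -0.058 to 0.17) it was not called. For the inhibitors against DMSO, the intervals of PHLDA1 were among the narrowest of the set, none reaching beyond 0.19 in either direction. That limit rests on the fit without the GC and length correction, with which the A366 value in MP41 was 0.41 and was called (edgeR adjusted p = 0.000789).

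Counting the genes whose 3 inhibitor libraries all lay to one side of the 3 DMSO libraries, UNC0642 in Mel92.1 had 0 of 10, beside 15.4% of all genes tested in either direction. A366 in Mel92.1 had 4 above (DUSP4, DUSP5, DUSP6, SPRY2) and 1 below (ETV5), beside 15.7%. UNC0642 in MP41 had 1 above (DUSP4) and 4 below (DUSP6, SPRY2, SPRY4, ETV5), beside 18.8%. A366 in MP41 had 4 above (DUSP4, DUSP6, SPRY2, PHLDA1) and 2 below (SPRED1, SPRED2), beside 58%.

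The inhibitors were given at the same dose for the same time and could be compared directly. In MP41, 3 of the 10 genes were called higher with A366 than with UNC0642, where 21.1% of genes were, and 1 was called lower, where 22% were. DUSP6 differed most, at 1.69-fold (log2 0.76, SE 0.0617, edgeR adjusted p = 1.35e-05). SPRY2 was 1.35-fold higher (log2 0.43, SE 0.0602, edgeR adjusted p = 0.000371) and DUSP5 1.3-fold higher (log2 0.37, SE 0.132, edgeR adjusted p = 0.0371), while SPRED1 was 1.29-fold lower (log2 -0.37, SE 0.086, edgeR adjusted p = 0.00497). With the 1 A366 library left without the 4 doubtful ones, DUSP6 differed by 0.74, SPRY2 by 0.39 and SPRED1 by -0.44, with adjusted p under the threshold, and DUSP5 by 0.34 (edgeR adjusted p = 0.21). The DUSP5 call was also lost in 5 of the 9 fits that left out 1 library of the line. As labelled, DUSP6 came to 0.052 and SPRY2 to 0.26 and neither was called. With the GC and length correction the called genes were in part others: DUSP6 (0.84) and SPRY2 (0.32) remained, SPRED1 came to 0.049 and DUSP5 to 0.13 (edgeR adjusted p = 0.472), and PHLDA1 (0.40), DUSP4 (0.24), SPRY4 (0.21), SPRED2 (-0.24) and ETV4 (-0.27) were called. In the fit without that correction, for the 6 genes not called the widest 95% interval was that of SPRED2, -0.46 to -0.043, and the narrowest that of PHLDA1, -0.05 to 0.17.

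In Mel92.1, 0 of the 10 genes were called between the inhibitors, where 0.165% of genes were. DUSP6 came nearest, higher with A366 by 0.38 (95% interval 0.21 to 0.56, unadjusted p = 0.00062, edgeR adjusted p = 0.132), with its 3 A366 libraries above all UNC0642 ones, and DESeq2 called it. ETV5 was lower with A366 by a log2 value of -0.23 (95% interval -0.39 to -0.071, edgeR adjusted p = 0.483). The other intervals held 0, from -0.14 to 0.15 for DUSP4 to -0.53 to 1.71 for DUSP5, so that like action of the inhibitors was not shown either.

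**Figure D4:**
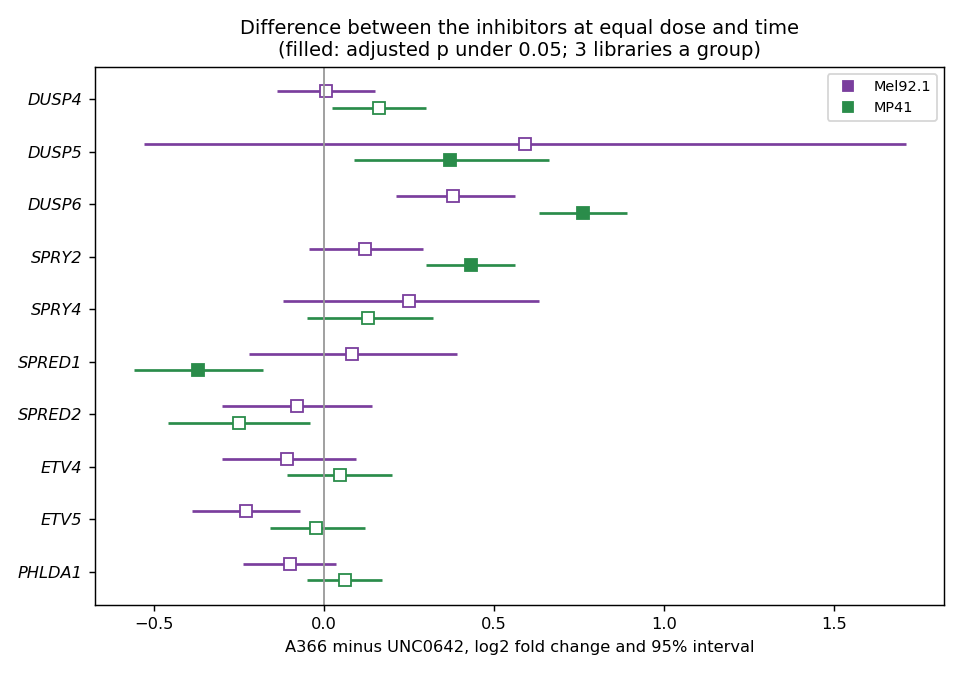
Difference between A366 and UNC0642 for each gene as log2 fold change with its 95% interval (horizontal axis), in Mel92.1 and MP41, with filled squares for an adjusted p under 0.05. DUSP6 is highest in MP41 at 0.76, SPRED1 in MP41 lies at -0.37, and no Mel92.1 square is filled.

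Tests of the difference in response between the lines called 0 of the 10 genes for UNC0642, where 0.601% of genes were called, and 0 for A366, where 13.8% were. For UNC0642 the largest value with an interval clear of 0 was that of DUSP6, whose response in Mel92.1 exceeded that in MP41 by 0.39 (95% interval 0.20 to 0.57, unadjusted p = 0.000421, edgeR adjusted p = 0.0634). SPRY2 followed at 0.30 (95% interval 0.12 to 0.48, edgeR adjusted p = 0.185), and DESeq2 called both. For A366, DUSP4 was at -0.21 (95% interval -0.38 to -0.032, edgeR adjusted p = 0.103). These fits used both lines and shared 1 estimate of the spread.

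**Figure D5:**
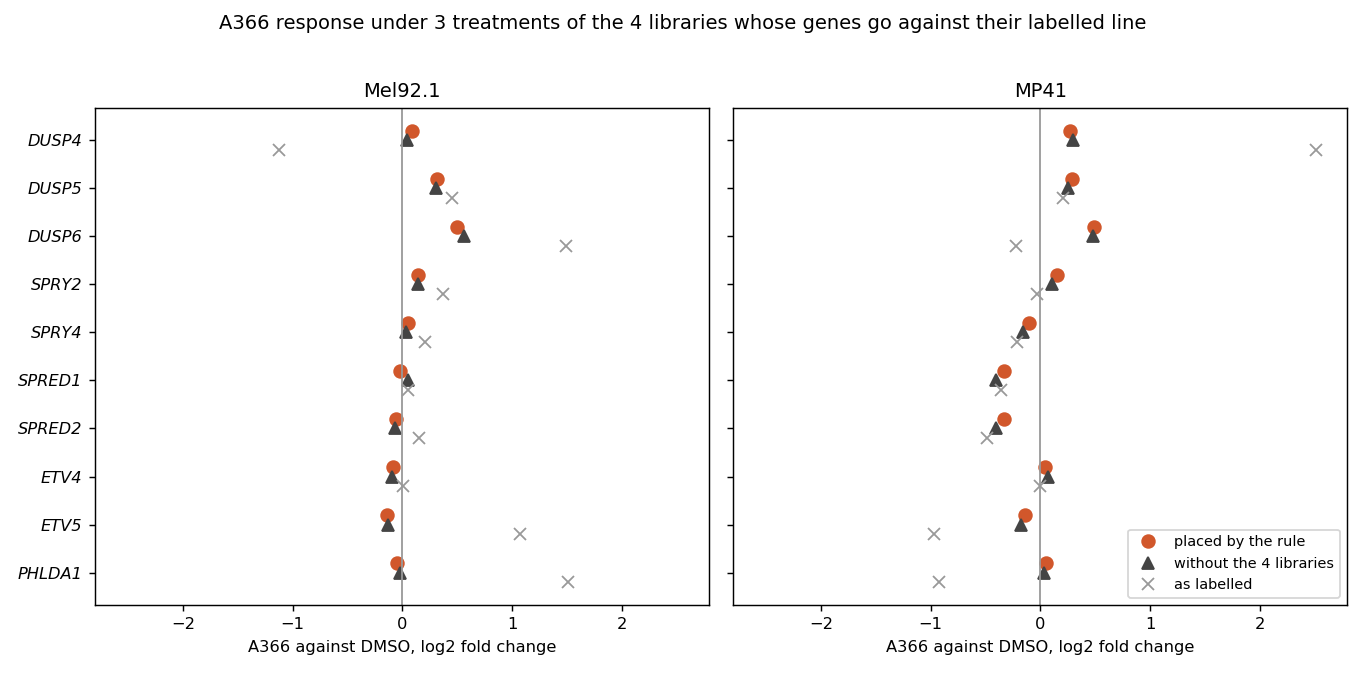
Log2 fold change of each gene with A366 against DMSO (horizontal axes) in Mel92.1 and MP41, with the 4 doubtful libraries placed in the line opposite to their label, left out, or kept as labelled. Placed and left-out values lie within 0.07 of each other, while the labelled values of DUSP4, DUSP6, ETV5 and PHLDA1 differ from the placed ones by at least 0.71 and those of the other genes by at most 0.23.

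The other genes of the pathway were described in 3 lists. Their values come from the edgeR fit without the GC and length correction, with the 4 doubtful libraries placed in the opposite line. Values from other fits or placements are not given for these lists. Of 20 further ERK output genes, 18 were tested in MP41, where A366 raised 4 and lowered 4, a share close to the 22.5% and 23.5% of all genes called in these directions there. IER2, an immediate early gene, rose from 39.8 ± 0.86 to 62.4 ± 7.52 CPM (log2 0.62, edgeR adjusted p = 0.000385) and EGR1, an immediate early zinc finger factor, from 2.14 ± 0.343 to 4.26 ± 0.638 (log2 0.97, edgeR adjusted p = 0.0116), while HMGA2, a chromatin protein, fell by 0.53 and SPRY3 by 0.61 on the log2 scale. UNC0642 in MP41 lowered 1 of the 18, FOS, the AP-1 subunit, beside 0.241% of all genes called in either direction. FOS went from 29 ± 0.832 to 21.9 ± 1.14 CPM (log2 -0.41, edgeR adjusted p = 0.0385). Of the 21 genes of the cascade itself, A366 in MP41 raised 3 and lowered 11, beside the same 22.5% and 23.5%, with a median log2 fold change of -0.26 beside 0.02 over all genes tested. The RAS inhibitor NF1 fell by 0.81, the RAS activator SOS1 by 0.63 and the kinase BRAF by 0.63, and UNC0642 gave 0 calls among the 21. Of the 10 regulators of ERK output transcription, A366 in MP41 raised 3 and lowered 6 (median -0.30), again beside 22.5% and 23.5% of all genes. SRF, the partner of the ETS factors at immediate early genes, rose by 0.43, and ETV3 fell by 0.79, ELK4 by 0.45 and ATXN1L by 0.39. In Mel92.1 both inhibitors left all genes of these 3 lists short of the threshold.

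EHMT2, the enzyme both compounds inhibit, was measured at 107 ± 1.6 CPM with DMSO, 93.8 ± 14.2 with UNC0642 and 106 ± 3.47 with A366 for Mel92.1, with no call. In MP41 it rose with A366 from 98.5 ± 3.01 to 117 ± 1.28 CPM (log2 0.23, edgeR adjusted p = 0.00936) and was 95.3 ± 4.15 with UNC0642. Its partner EHMT1 was not called against DMSO in either line. The summed endothelial markers in MP41 were 2.37 to 3.14 CPM with A366 and 0.369 to 0.584 with DMSO. Most of this was VWF, at 2.57 and 0.379 CPM on average, with PECAM1 at 0.243 and 0.101. Only 1 of the 3 endothelial genes was tested, and it was called higher, beside 22.5% of all genes. The summed fibroblast markers were 23 to 23.9 CPM with A366 and 27.9 to 30.7 CPM with DMSO. Of the 3 fibroblast genes tested, 2 were called lower (COL1A1 at -0.43 and LUM at -0.26), beside 23.5% of all genes. For both lists, their part in the results was not tested.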

How the data were processed

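RNA-seq libraries were made from 2 cell lines with 3 treatments and 3 replicates each. The authors deposited a single table of RSEM expected counts (estimated reads for each gene, without normalization). Per the submitters' processing notes RSEM 1.2.15, Bowtie2 2.1.0 and hg38 were used, and the annotation is not given in the sources used here. The study's methods describe another pipeline, with FPKM values, that does not match this table. Poly(A) selection is named in the labels and ribosomal RNA removal in the series text.

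Expected counts were rounded to whole numbers, scaled with TMM and filtered with filterByExpr. edgeR 4.0.16 (R 4.3.3) was fitted per line over its 9 libraries, and over all 18 for contrasts between lines, with 1 coefficient a group and Benjamini-Hochberg adjustment over all genes tested. Alternatives were DESeq2 1.42.0, limma 3.58.1 (voom with quality weights, and log2(CPM + 1)), RLE factors, library size alone, ribosomal genes removed, other filters, other samples in the fit, an offset for GC content and length, the replicate number as a block, each library left out, and other placements of 4 libraries, whose placement followed the authors' own listing of the samples. The fits were tested on simulated data. Gene positions, lengths and overlaps came from GENCODE 29 (GRCh38), where 10 of 10 genes matched, and start windows from RefSeq. All 10 genes were named, with up to 4 called genes at 1 CPM or more from each other list and inhibitor comparison, those with the largest changes, and EHMT1 and EHMT2. One gene that this rule selects is not reported here. The genes, lists and placement were chosen with earlier results of these data known. Total counts of 23601160 to 62941453 a library gave 15 to 31508 counts for a gene of the set.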

Additional observations from a re-analysis of the deposited data

How the results depend on the processing

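Most values of the members kept their side of the threshold, and the called results include the 8 between the lines with DMSO. Under the alternatives other than leaving out 1 library, 220 values of the called results did so, 20 lost the call and 7 took the opposite sign. Of the results not called, 1001 values stayed so, 62 gained a call and 10 gained one with the opposite sign. With 1 library left out, 192 values of the called results kept the call and 33 lost it, and 14 of the others gained one. The 1 member called in Mel92.1 with A366 became 0 with the libraries as labelled, without the 4 doubtful libraries, with library size alone, with the replicate block, and with the GC and length offset, alone or with the replicate block, and 2 with limma voom. In MP41 with UNC0642 the 0 calls became 2 (DUSP6 and SPRY2, both lower) without the 4 libraries, with DESeq2, voom, the GC and length offset and only the groups compared, and 1 with that offset and the replicate block. In MP41 with A366 the 4 became 8 with voom. The calls over all genes differed between these fits too. For A366 in MP41, voom called 5203 genes higher and 5045 lower of 14956, against 3362 and 3522 in the main edgeR fit. For A366 in Mel92.1, voom called 1522 higher and 1565 lower of 14528, against 26 and 5. DESeq2 called 95 and 85 for UNC0642 in MP41, against 17 and 19. Between the inhibitors, 0 became 1 in Mel92.1 with DESeq2, voom and all 18 libraries in 1 fit, and 4 became 7 in MP41 with the GC and length offset, with or without the replicate block, where 2 of the 4 (DUSP5 and SPRED1) were lost and 5 others gained. For the difference between lines with UNC0642, 0 became 2 (DESeq2) or 1 (voom, RLE factors, a mean of at least 1 CPM). With A366, 0 became 6 (as labelled) or 5 (voom). Of 15799 genes, that A366 difference was called higher for 3745 and lower for 4056 as labelled, and for 4422 and 4854 with voom. The main edgeR fit called 810 and 1369. Between the inhibitors in MP41, the offset called 2423 genes higher and 2851 lower of 14956, against 3160 and 3290.

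Leaving out 1 library at a time gave 0 to 1 member called in Mel92.1 with A366, 0 to 2 in MP41 with UNC0642, 3 to 7 in MP41 with A366, 3 to 6 between the inhibitors in MP41, 6 to 8 between the lines with DMSO and 0 to 1 for the differences between lines with either inhibitor. The other counts of members stayed at 0. The highest value of 7, and the 2 with UNC0642, came without MP41 A366 replicate 2. That fit called 3858 genes higher and 4082 lower of 15227 with A366, and 62 and 68 with UNC0642.

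The signs of values called in either fit turned as follows. With the libraries as labelled, DUSP6 with A366 in MP41 was -0.22, and the A366 response in Mel92.1 minus that in MP41 was 1.69 for DUSP6, 0.40 for SPRY2, 2.01 for ETV5 and 2.41 for PHLDA1. Values called in neither turned too, among them PHLDA1 with A366 to 1.51 in Mel92.1 and -0.92 in MP41, ETV5 to 1.07 and DUSP4 to -1.12 in Mel92.1. With the GC and length offset, both alone and with the replicate block, SPRED1 with A366 in MP41 was 0.12 against DMSO and 0.049 against UNC0642, and ETV4 was -0.30 and -0.27. Between the lines with DMSO, SPRED1 was then 0.28 and ETV4 -0.59 (-0.58 with the block). As labelled, the A366 group of each line held libraries with the genes of both lines. The cause of the shifts with the GC and length offset was not tested. Same-numbered libraries did not deviate together: 1 of 18 such pairs had a correlation over 0.1 (range -0.248 to 0.3), so the replicate number served only as an alternative, and with the replicate block 7 members instead of 8 were called between the lines. Scaling by library size alone moved the median of all genes from -0.022 to -0.233 for UNC0642 in Mel92.1. DUSP5 had the fewest counts of the set, with 15 in the library that stood apart.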
